A study of Homo sapiens with 12 samples.

Results

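Mitochondrial ribosomal proteins were taken as every gene of the count table whose symbol begins with MRPL or MRPS followed by a number, with a letter A to C allowed at the end. This gave 78 of the 57353 gene names in the table, 49 named for the large subunit and 29 for the small subunit. All 78 carry an entry in the GENCODE annotation of GRCh38. RNA had been sequenced from MOLM-13 cells, an established human acute myeloid leukemia (AML) line that carries FLT3-ITD, an activating internal tandem duplication in the receptor kinase FLT3. The cells had received vehicle (DMSO) or 3 nM quizartinib, a FLT3 inhibitor also known as AC220, for 15 hr. They were kept in regular RPMI medium or in hBMSC-CM, RPMI to which conditioned medium of the human marrow stromal line HS-5 had been added. The 4 groups of 3 replicates each were thus vehicle in RPMI, quizartinib in RPMI, vehicle in hBMSC-CM and quizartinib in hBMSC-CM, and all of them were the same line with no further genetic change. The study's reporting checklist calls its replicates biological, and the labels do not say whether these were separate cultures, so the p-values measure the spread between these samples.

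Mitochondria translate their own few messenger RNAs, which encode core subunits of the respiratory chain and of ATP synthase, on a ribosome that differs from the cytosolic one. All of its proteins are encoded in the nucleus, made in the cytosol and imported, and they assemble on ribosomal RNAs transcribed from mitochondrial DNA. The small subunit binds the mRNA and holds the decoding center, while the large subunit forms the peptide bond. Part of the proteins descend from bacterial ribosomal proteins and the others are found only in mitochondria. Leukemia cells are known to depend on mitochondrial translation and respiration.

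Library totals ranged from 19966546 to 31546104 counts. Levels are given as CPM, the counts of a gene relative to the library total after TMM scaling, and differences as log2 fold changes ± SE from edgeR's quasi-likelihood test. P-values were adjusted by the Benjamini-Hochberg method over the 12998 genes that passed the filter on low counts and genes at an adjusted p under 0.05 were called. A lower level per cell and a smaller number of cells with a high level cannot be told apart in bulk RNA. Levels here are relative, and in a separate experiment the study reports reduced RNA from whole lysates with quizartinib. Whether genes called higher or lower also changed in amount per cell was not tested. The filter kept 76 members, 48 of the large and 28 of the small subunit. MRPL53 had 3 counts over all libraries and MRPS24 had 12 to 39 counts per library, and neither was tested. Of the myeloid marker genes CD33, SPI1, PTPRC, FLT3, CSF1R, LYZ and MPO, all 7 passed the filter, and 7 of the 8 stromal marker genes did not. The exception was COL1A1, which reached 4.33 to 4.82 CPM with quizartinib in RPMI, 0.839 to 1.12 CPM with quizartinib in hBMSC-CM and at most 0.300 CPM with vehicle. COL3A1, LUM, DCN, CXCL12 and THY1 had 0 counts in every library, and a role of COL1A1 in the results was not tested.

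Quizartinib in RPMI lowered most of the mitoribosomal genes. Of the 76 tested members, 61 were lower and 5 were higher than with vehicle, where 39.2% of all tested genes were called lower and 40.1% higher. The median log2 fold change of the members was −0.49, against 0.02 over all tested genes. The large and small subunits are set side by side, and the difference between them was not tested. In the large subunit 41 of 48 members fell and 3 rose, with a median of −0.58. In the small subunit 20 of 28 fell and 2 rose, with a median of −0.37. Among the members, 14 fell by at least 2-fold, 8 of the large and 6 of the small subunit, a change seen in 11.8% of all tested genes. In hBMSC-CM 0 members fell by 2-fold, and 2.03% of all tested genes did.

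MRPL17, a large-subunit protein of bacterial origin, lies on chromosome 11 (6680385 to 6683340, minus strand, GRCh38) and has 3 exons. Its level was 75.7, 77.6 and 70.5 CPM with vehicle in RPMI and 20.0, 18.9 and 22.2 CPM with quizartinib in RPMI. In hBMSC-CM it was 85.9, 94.3 and 100.1 CPM with vehicle and 57.3, 53.0 and 54.4 CPM with quizartinib. The groups of each medium did not overlap, and quizartinib in RPMI gave the lowest levels of all. The fall was 3.68-fold in RPMI (log2 −1.88 ± 0.07, adjusted p = 2.65e-16) and 1.70-fold in hBMSC-CM (log2 −0.76 ± 0.06, adjusted p = 5.90e-10).

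MRPS26, a small-subunit protein found only in mitochondria, lies on chromosome 20 (3046052 to 3048250, plus strand) and has 4 exons. It was at 27.7, 26.3 and 28.7 CPM with vehicle in RPMI and at 8.24, 8.77 and 9.45 CPM with quizartinib. In hBMSC-CM its level was 36.8, 38.8 and 44.9 CPM with vehicle and 24.7, 28.8 and 25.9 CPM with quizartinib. Quizartinib in hBMSC-CM thus overlapped with vehicle in RPMI, while quizartinib in RPMI lay far below both. MRPS26 fell 3.13-fold in RPMI (log2 −1.65 ± 0.09, adjusted p = 2.27e-13) and 1.51-fold in hBMSC-CM (log2 −0.60 ± 0.07, adjusted p = 4.31e-07).

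MRPL36, one of the smallest proteins of the large subunit, lies on chromosome 5 (1798385 to 1801366, minus strand). Its level was 30.1, 29.8 and 30.2 CPM with vehicle and 14.9, 13.7 and 15.1 CPM with quizartinib in RPMI. In hBMSC-CM it was 36.9, 43.7 and 40.4 CPM with vehicle and 32.9, 34.0 and 31.2 CPM with quizartinib. MRPL36 therefore stood above the RPMI vehicle level in all 6 libraries of hBMSC-CM. It fell 2.07-fold in RPMI (log2 −1.05 ± 0.07, adjusted p = 1.01e-11) and 1.23-fold in hBMSC-CM (log2 −0.30 ± 0.06, adjusted p = 2.90e-04).

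MRPL33, a large-subunit protein of bacterial origin on chromosome 2 (27771717 to 27988087, plus strand), moved the other way. It was at 76.8, 81.0 and 83.1 CPM with vehicle and at 116, 111 and 111 CPM with quizartinib in RPMI. In hBMSC-CM the levels were 83.4, 81.8 and 91.7 CPM with vehicle and 122, 117 and 119 CPM with quizartinib. All 6 quizartinib libraries lay above all 6 vehicle libraries. The rise was 1.41-fold in RPMI (log2 0.49 ± 0.05, adjusted p = 4.44e-09) and 1.40-fold in hBMSC-CM (log2 0.48 ± 0.05, adjusted p = 1.43e-08).

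The 250 bases before a transcription start of each of these 4 genes are given below, from RefSeq (GRCh38.p14) and 5′ to 3′ on the strand of the gene, because they show the promoter letters of 3 members that fell in RPMI by over 2-fold and of 1 that rose.
MRPL17: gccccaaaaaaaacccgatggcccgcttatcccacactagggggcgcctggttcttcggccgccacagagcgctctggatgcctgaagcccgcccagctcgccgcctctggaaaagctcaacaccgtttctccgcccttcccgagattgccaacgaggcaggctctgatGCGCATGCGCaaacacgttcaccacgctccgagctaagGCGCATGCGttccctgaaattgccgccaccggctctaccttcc
MRPS26: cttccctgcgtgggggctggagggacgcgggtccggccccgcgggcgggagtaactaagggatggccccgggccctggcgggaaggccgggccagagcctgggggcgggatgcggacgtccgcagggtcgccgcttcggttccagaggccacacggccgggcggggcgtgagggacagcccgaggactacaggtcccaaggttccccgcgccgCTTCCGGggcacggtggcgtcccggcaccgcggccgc
MRPL36: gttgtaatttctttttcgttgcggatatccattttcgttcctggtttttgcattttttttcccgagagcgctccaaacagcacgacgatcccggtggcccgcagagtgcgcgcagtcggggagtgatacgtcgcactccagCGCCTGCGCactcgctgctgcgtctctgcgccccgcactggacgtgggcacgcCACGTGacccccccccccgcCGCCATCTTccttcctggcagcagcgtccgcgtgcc
MRPL33: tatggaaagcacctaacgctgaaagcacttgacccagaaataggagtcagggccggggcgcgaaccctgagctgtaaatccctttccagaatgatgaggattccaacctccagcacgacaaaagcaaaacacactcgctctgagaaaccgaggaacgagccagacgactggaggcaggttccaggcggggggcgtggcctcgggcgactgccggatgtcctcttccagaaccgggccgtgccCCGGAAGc
The MRPL17 stretch is chr11:6683341-6683590 on the minus strand. The MRPS26 stretch is chr20:3045802-3046051 on the plus strand. The MRPL36 stretch is chr5:1799838-1800087 on the minus strand. For MRPL36 this is the start of the canonical transcript, which lies inside the span of the gene given above, since another transcript starts further upstream. The MRPL33 stretch is chr2:27771469-27771718 on the plus strand.

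Capitals mark short motifs that a search of both strands found, and motifs on the other strand appear as their reverse complement. The letters searched were CACGTG (an E-box, bound by MYC and related factors), GCGCANGCG (a shortened form of the NRF1 motif), CCGGAAG (the core of sites bound by ETS factors such as GABPA) and AAGATGGCG (bound by YY1). These factors are known regulators of nuclear genes for mitochondrial proteins. A RefSeq promoter was matched to 69 of the 78 members, and the search covered 300 bases, 250 of them before the start. The ETS core was in 43.5% of the member promoters, 21.3% of the promoters of tested genes and 10.9% of all promoters. The YY1 motif was in 18.8%, 4.69% and 1.95% of the same sets. The NRF1 motif was in 20.3%, 16.4% and 8.28%, and the E-box in 7.25%, 10.7% and 7.42%. In RPMI, members with the ETS core had a median log2 fold change of −0.38 and those without it −0.58. The other motifs went the same way, with −0.35 and −0.54 for YY1 and −0.34 and −0.48 for NRF1. For the E-box, which 5 tested members had, the medians were −0.25 and −0.49. These differences were not tested. A match is a run of letters and was not shown to be a bound site.

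**Figure D1:**
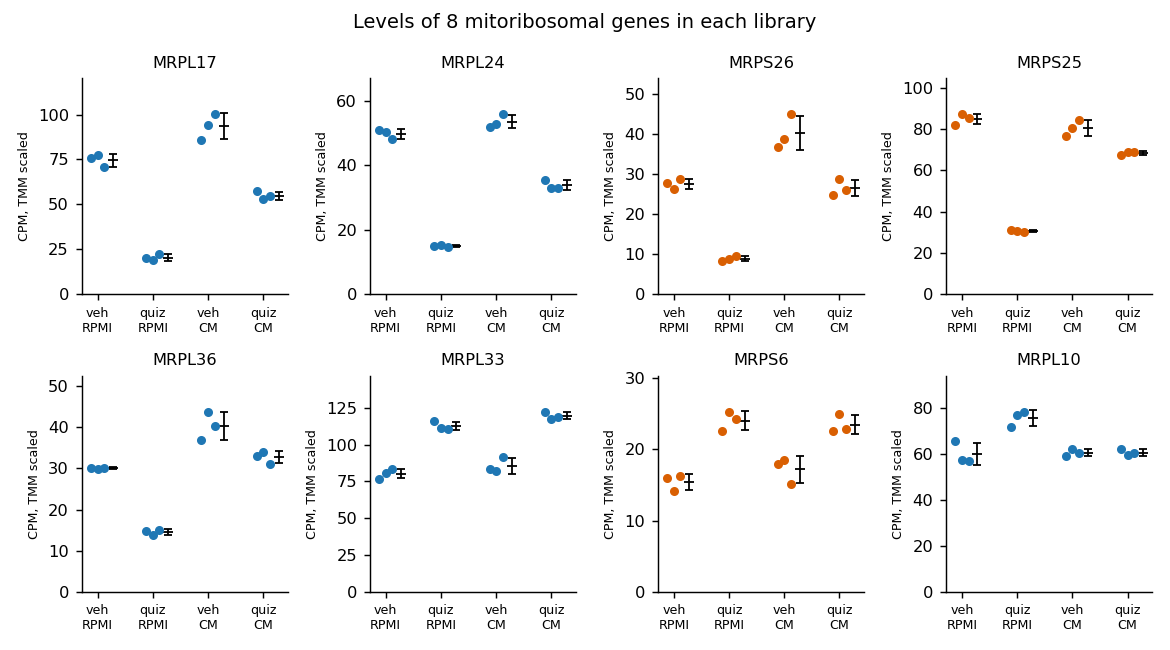
TMM-scaled CPM (vertical axes, from 0) of 8 mitoribosomal genes in each library (points) with the mean and SD of 3 replicates beside them, for vehicle (veh) and quizartinib (quiz) in RPMI and hBMSC-CM (CM); blue marks the large and orange the small subunit. MRPL17, MRPL24, MRPS26, MRPS25 and MRPL36 are lowest with quizartinib in RPMI, MRPL33 and MRPS6 are high with quizartinib in both media, and MRPL10 is high with quizartinib in RPMI only among the 4 groups.

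Among the other proteins of bacterial origin in the large subunit, MRPL24 was at 50.8, 50.4 and 48.0 CPM with vehicle and at 14.8, 15.1 and 14.8 CPM with quizartinib in RPMI. This was a log2 fold change of −1.74 ± 0.06 with an adjusted p of 7.66e-17. MRPL12 forms the flexible stalk that recruits translation factors, and it was counted at 3.02 ± 0.819 CPM with vehicle and 0.755 ± 0.0224 CPM with quizartinib in RPMI (mean ± SD, n = 3). Its log2 fold change of −1.97 ± 0.24 was the lowest of the tested members (adjusted p = 1.52e-07), but 69.5% of its exon bases are shared with another annotated gene on the same strand. MRPL3 and MRPL20 fell by 1.42 and 1.22 on the log2 scale. Taken as a class, 26 of the 30 tested bacterial-type proteins of the large subunit fell and 2 rose (median −0.70). Of the 20 tested large-subunit proteins found only in mitochondria, 17 fell and 1 rose (median −0.40). In the same comparison 39.2% of all tested genes were called lower and 40.1% higher. These classes, and those of the small subunit below, place proteins by structure rather than by symbol. MRPS30 and MRPS18A count there in the large subunit and MRPS36 is left out. The tested members thus number 50 for the large and 25 for the small subunit, against 48 and 28 by name.

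The small subunit showed the same order of classes. Of 15 tested proteins of bacterial type, 12 fell and 1 rose (median −0.48), and of 10 tested proteins specific to mitochondria, 5 fell and 1 rose (median −0.25). The shares that fell were 80% and 50%, where 39.2% of all tested genes were called lower, so the second share was near that of all genes. MRPS12, a protein of the decoding center, fell from 50.9 ± 4.56 to 18.8 ± 1.15 CPM (log2 −1.44 ± 0.08, adjusted p = 6.26e-13). MRPS25 fell from 84.8 ± 2.51 to 30.6 ± 0.551 CPM (log2 −1.47 ± 0.05, adjusted p = 5.63e-17), and 44.1% of its exon bases are shared with other genes. MRPS34 fell by 1.13 and MRPS17 by 1.07 on the log2 scale. The difference between the classes was not tested.

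MRPS6, the member with the largest rise, was at 15.9, 14.1 and 16.2 CPM with vehicle and 22.6, 25.3 and 24.2 CPM with quizartinib in RPMI. In hBMSC-CM it was at 17.9, 18.6 and 15.1 CPM with vehicle and 22.5, 25.0 and 22.9 CPM with quizartinib. The quizartinib libraries again lay above the vehicle libraries in both media, and the gene rose by 0.64 ± 0.08 on the log2 scale in RPMI (adjusted p = 2.20e-07) and 0.45 ± 0.08 in hBMSC-CM (adjusted p = 4.82e-05). MRPS6 shares 33.1% of its exon bases with other genes, SLC5A3 among them. MRPL45, a large-subunit protein that faces the inner membrane, rose by 0.43 ± 0.06 in RPMI (adjusted p = 4.36e-07), and its pseudogenes hold 6.99% as many counts as the gene. MRPL10, which anchors the MRPL12 stalk, rose by 0.34 ± 0.05 (adjusted p = 8.16e-06). MRPS27 rose by 0.10 ± 0.04 (adjusted p = 0.0279), and this call was lost without vehicle replicate 2 or 3 or quizartinib replicate 3 (log2 0.090, 0.10 and 0.095). Without the filter on low counts MRPS27 was at −0.0019.

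Quizartinib also lowered most members in hBMSC-CM, by less. There, 53 of 76 members were lower and 4 were higher, where 33.7% of all tested genes were called lower and 33.4% higher. The median was −0.26 for all members, against 0.01 over all tested genes. With upper-quartile factors 40 members were lower and 5 higher, and with library size only 37 and 5. Over all tested genes these settings moved the split from 4344 higher and 4378 lower to 5316 and 3539 and to 5583 and 3311. The large subunit had 36 lower and 2 higher members (median −0.30) and the small subunit 17 lower and 2 higher (median −0.18). The lowest values were those of MRPL12 (−0.87 ± 0.19, adjusted p = 4.07e-04), MRPL17 and MRPS12 (−0.69 ± 0.07, adjusted p = 6.43e-08). The 4 that rose were MRPL33, MRPS6, MRPS14 (0.31 ± 0.07, adjusted p = 7.03e-04) and MRPL45 (0.20 ± 0.06, adjusted p = 0.00445). These 2 comparisons share no libraries, and 51 members were lower in both, 83.6% of the 61 in RPMI and 96.2% of the 53 in hBMSC-CM. Over all tested genes 3916 were lower in both, which was 76.8% and 89.4% of those lower in each medium. The remaining 2 of those lower in hBMSC-CM were MRPL46 and MRPS9. Across the 76 genes the log2 fold changes of the 2 media had a Pearson r of 0.85, against 0.86 across all 12998 tested genes, and genes of one library set are not independent.

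**Figure D2:**
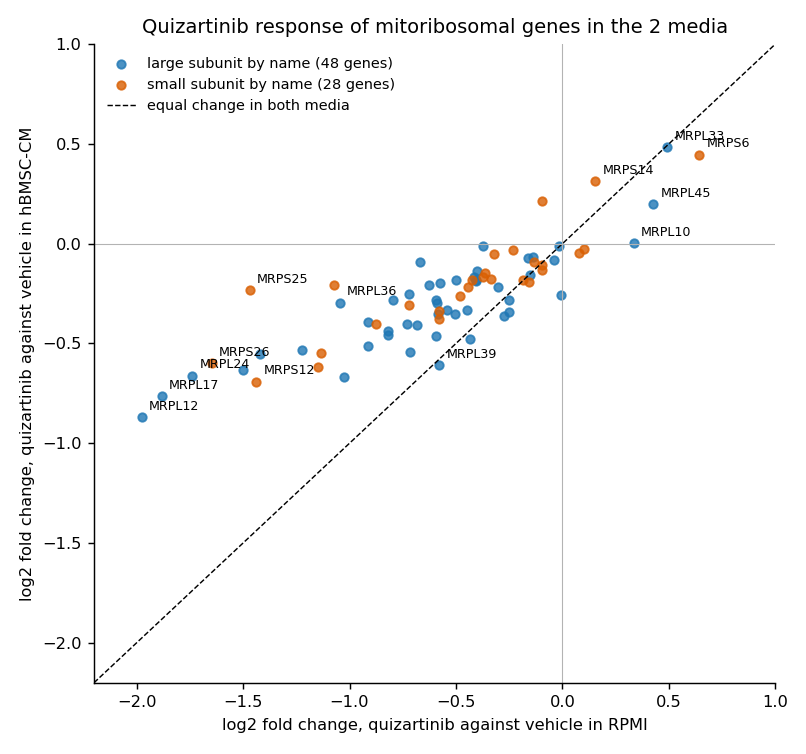
Log2 fold change of quizartinib against vehicle in RPMI (horizontal) and in hBMSC-CM (vertical) for the 76 tested mitoribosomal genes, with large-subunit genes in blue and small-subunit genes in orange; the dashed line marks equal change. The points that fell furthest in RPMI, such as MRPL12 at −1.97 and MRPS25 at −1.47, lie well above the line, while MRPL39 at −0.58 and MRPL33 at 0.49 lie close to it.

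A direct test of the difference between the 2 responses, the interaction of quizartinib and medium, called 42 members positive and 2 negative, where 26.1% of all tested genes were called positive and 19.2% negative. The median of the members was 0.23, against 0.01 over all tested genes. For the large subunit 26 were positive and 2 negative, and for the small subunit 16 were positive and 0 negative by edgeR (1 negative at an unadjusted p under 0.05). MRPS25 had the highest value (1.24 ± 0.07, adjusted p = 2.83e-12), with a fall of 2.77-fold in RPMI and 1.17-fold in hBMSC-CM. MRPL17 followed (1.12 ± 0.09, adjusted p = 1.99e-09), then MRPL12 (1.11 ± 0.32, adjusted p = 0.00704), MRPL24 (1.08 ± 0.08, adjusted p = 3.90e-10) and MRPS26 (1.05 ± 0.12, adjusted p = 2.14e-07). The negative members were MRPL10 (−0.33 ± 0.08, adjusted p = 0.00140) and MRPL45 (−0.23 ± 0.08, adjusted p = 0.0225), and the call of MRPL45 was lost without quizartinib replicate 3 in hBMSC-CM (−0.17) and with no filter (−0.16). MRPL39, which is related in sequence to an aminoacyl-tRNA synthetase, was at −0.58 ± 0.06 in RPMI and at −0.61 ± 0.06 in hBMSC-CM, and its interaction of −0.03 ± 0.08 was not called (adjusted p = 0.801).

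With quizartinib in both arms, hBMSC-CM gave higher levels than RPMI for 49 of the 76 members and lower levels for 3, where 35.5% of all tested genes were called higher and 34.3% lower. The median was 0.30, with 32 higher and 2 lower in the large subunit (median 0.32) and 17 higher and 1 lower in the small subunit (median 0.28). MRPS26 had the highest difference, 3.01-fold (log2 1.59 ± 0.09, adjusted p = 1.19e-12), and MRPL17 (1.44 ± 0.07, adjusted p = 8.94e-14) and MRPL12 (1.43 ± 0.26, adjusted p = 4.95e-05) came next. The 3 lower members were MRPL10 (−0.32 ± 0.05, adjusted p = 2.18e-05), MRPL45 (−0.30 ± 0.06, adjusted p = 5.05e-05) and MRPS27 (−0.09 ± 0.04, adjusted p = 0.0476). The number of lower members was 5 without quizartinib replicate 1 in hBMSC-CM. MRPS27 lost its call without quizartinib replicate 2 or 3 in RPMI (−0.11 and −0.086) and without quizartinib replicate 2 or 3 in hBMSC-CM (−0.093 and −0.060). The call was also lost with the replicate block (−0.092, adjusted p = 0.0657), with only the groups compared (−0.094) and with no filter (−0.015).

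The medium alone had a smaller effect. With vehicle, hBMSC-CM gave higher levels for 19 members and lower levels for 0 by edgeR, where 16.6% of all tested genes were called higher and 15.5% lower. At an unadjusted p under 0.05, 1 member was lower, and limma-voom and the DESeq2 Wald test called 0 lower as well. The median of the members was 0.07, with 12 higher in the large subunit and 7 in the small subunit. MRPS26 rose most (0.54 ± 0.07, adjusted p = 9.80e-06), followed by MRPL36 (0.42 ± 0.06, adjusted p = 3.11e-05) and MRPL55 (0.37 ± 0.07, adjusted p = 6.46e-04). MRPL55 was at 18.9 ± 1.00 CPM in RPMI and 24.6 ± 2.11 CPM in hBMSC-CM.

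**Figure D3:**
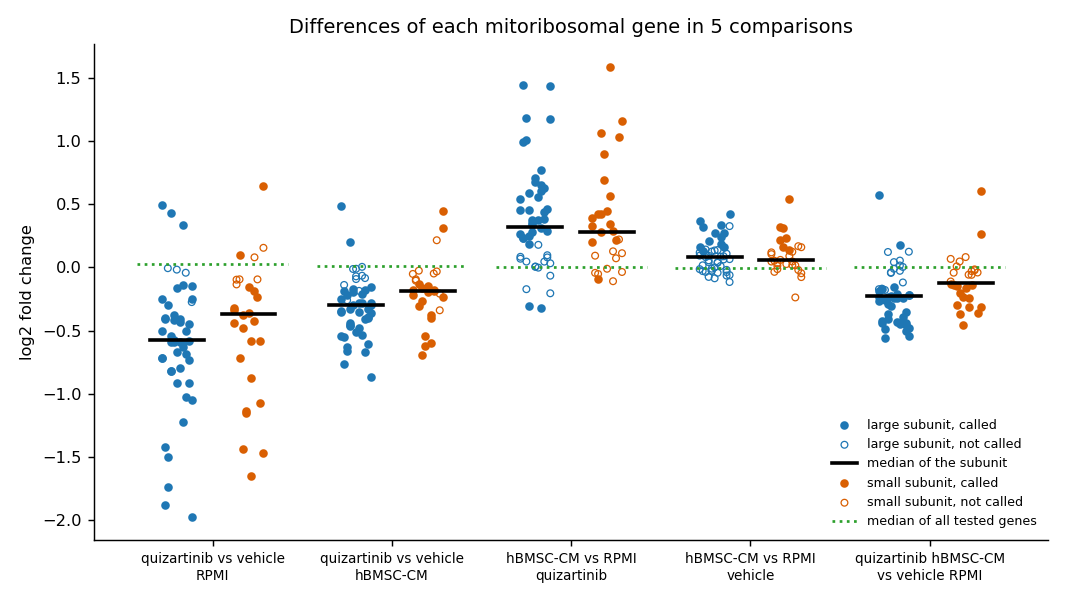
Log2 fold change (vertical) of each tested mitoribosomal gene in 5 comparisons, with the large subunit (48 genes) in blue and the small subunit (28 genes) in orange; filled points were called at an adjusted p under 0.05, black bars are subunit medians and dotted green lines are medians of all 12998 tested genes. In RPMI the medians are −0.58 and −0.37, in hBMSC-CM −0.30 and −0.18, and between the media with quizartinib 0.32 and 0.28.

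Cells with quizartinib in hBMSC-CM were also compared with vehicle in RPMI. Of the members, 46 were lower and 4 higher, where 31.6% of all tested genes were called lower and 30.6% higher. With library size only, 34 members were lower and 10 higher, while the split over all tested genes went from 3971 higher and 4104 lower to 5132 and 3130. The median was −0.19, with 32 lower and 2 higher in the large subunit and 14 lower and 2 higher in the small subunit. MRPL24 was lower by 0.56 ± 0.05 on the log2 scale (adjusted p = 9.92e-09) and MRPL39 by 0.50 ± 0.06 (adjusted p = 2.14e-07). MRPL12 was lower by 0.54 ± 0.19 (adjusted p = 0.0202), a call that was lost without vehicle replicate 1 or 3 in RPMI (−0.50 and −0.37) and without quizartinib replicate 1 in hBMSC-CM (−0.35). For MRPS26 (−0.06 ± 0.08, adjusted p = 0.523) and MRPL36 (0.12 ± 0.06, adjusted p = 0.0957) no difference was called. MRPL36 was called higher under upper-quartile factors (0.18), with library size only (0.21), at a mean of at least 10 CPM (0.17) and with only the groups compared (0.13). MRPS6 (0.61 ± 0.08, adjusted p = 1.29e-06), MRPL33 (0.57 ± 0.05, adjusted p = 1.09e-09) and MRPS14 (0.27 ± 0.07, adjusted p = 0.00285) were among those higher.

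Summed over the members, the large subunit took 2792, 2763 and 2729 CPM with vehicle in RPMI and 1939, 1947 and 1982 CPM with quizartinib. In hBMSC-CM it took 2848, 2945 and 3021 CPM with vehicle and 2482, 2382 and 2391 CPM with quizartinib. The 4 groups did not overlap, and with quizartinib the sum was 70.8% of vehicle in RPMI and 82.3% in hBMSC-CM. The small subunit took 1993 ± 14.6, 1497 ± 4.52, 2125 ± 76.2 and 1821 ± 59.0 CPM (mean ± SD, n = 3) in the same order of groups, which was 75.1% and 85.7% of vehicle. The sum of the large over that of the small subunit was 1.39 ± 0.00658 with vehicle in RPMI, 1.31 ± 0.0114 with quizartinib in RPMI, 1.38 ± 0.00993 with vehicle in hBMSC-CM and 1.33 ± 0.0152 with quizartinib in hBMSC-CM. It was lower in all 6 quizartinib libraries (1.30 to 1.34) than in all 6 vehicle libraries (1.37 to 1.39). These sums go by symbol, with MRPS30, MRPS18A and MRPS36 counted in the small subunit.

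**Figure D4:**
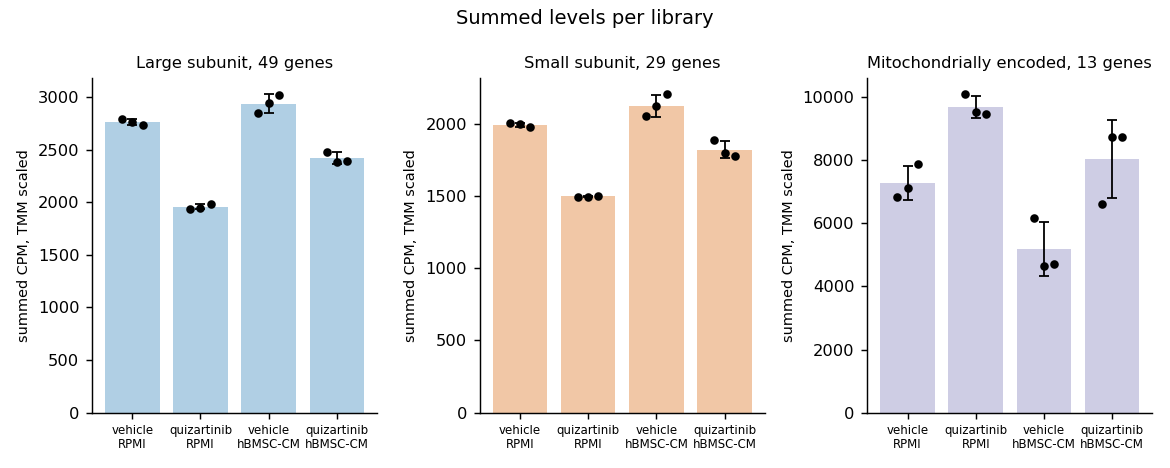
Summed TMM-scaled CPM (vertical axes, from 0) of the 49 large-subunit genes, the 29 small-subunit genes and the 13 mitochondrially encoded mRNAs; bars are means and error bars SD of 3 replicates, and points are libraries. Both subunits are lowest with quizartinib in RPMI (1956 and 1497 CPM on average), whereas the mitochondrially encoded mRNAs are highest there (9696 CPM).

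Some symbols do not match the place of the protein. MRPS30 and MRPS18A sit in the large subunit despite their names, and MRPS36 is a subunit of the 2-oxoglutarate dehydrogenase complex. With MRPS30 and MRPS18A moved and MRPS36 left out, an alternative chosen after seeing the data, the RPMI medians were −0.56 for the large and −0.42 for the small subunit. MRPS30 was at 98.3, 102 and 96.6 CPM with vehicle and 77.9, 77.4 and 75.6 CPM with quizartinib in RPMI (log2 −0.36 ± 0.04, adjusted p = 1.32e-07). MRPL58, a peptidyl-tRNA hydrolase built into the large subunit, fell by 0.54 ± 0.06 in RPMI (adjusted p = 9.15e-08) and by 0.33 ± 0.06 in hBMSC-CM (adjusted p = 8.78e-05).

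The MRPS18 paralogs derive from 1 bacterial protein and differed little between groups. Despite this origin, the classes above count MRPS18A and MRPS18B with the proteins found only in mitochondria. Of the paralogs, only MRPS18C is counted there as bacterial-type. MRPS18B, the most abundant of them at 159.6 CPM over all libraries, was at −0.10 ± 0.05 in RPMI (adjusted p = 0.0975) and −0.10 ± 0.05 in hBMSC-CM (adjusted p = 0.0869). It was called lower with no filter in RPMI (−0.20) and in hBMSC-CM (−0.14), with only the groups compared in RPMI (−0.10), and without quizartinib replicate 1 in hBMSC-CM (−0.18). MRPS18C fell by 0.23 ± 0.06 in RPMI (adjusted p = 7.84e-04) and was at −0.03 ± 0.06 in hBMSC-CM (adjusted p = 0.628). MRPS18C shares 83.6% of its exon bases with ABRAXAS1 on the opposite strand, and whether reads were counted by strand is not given in the sources used here. For MRPS18A the values were −0.16 ± 0.06 in RPMI (adjusted p = 0.0201) and −0.19 ± 0.06 in hBMSC-CM (adjusted p = 0.00706), and 60.6% of its exon bases are shared with RSPH9 on the opposite strand. Upper-quartile factors, library size only and a mean of at least 10 CPM ended both calls, with −0.055, −0.068 and −0.090 in RPMI and −0.11, −0.090 and −0.14 in hBMSC-CM. The first was lost without vehicle replicate 1 or 3 or quizartinib replicate 1 (−0.14, −0.14 and −0.11), and the second without vehicle replicate 3 or quizartinib replicate 2 (−0.14 and −0.13). For quizartinib in hBMSC-CM against vehicle in RPMI, edgeR called MRPS18B (−0.14 ± 0.05, adjusted p = 0.0263) and MRPS18A (−0.17 ± 0.06, adjusted p = 0.0186) lower, but not MRPS18C. The same 3 settings ended these 2 calls, which were also lost in 3 and 4 of the 6 fits that left out 1 library. MRPS36 was at −0.19 ± 0.07 (adjusted p = 0.0208) in RPMI and −0.18 ± 0.07 (adjusted p = 0.0268) in hBMSC-CM. Its RPMI call was lost without vehicle replicate 1 or 2 or quizartinib replicate 2 or 3 (−0.14, −0.16, −0.18 and −0.17), and its call in hBMSC-CM without vehicle replicate 2 or 3 or quizartinib replicate 3 (−0.18, −0.15 and −0.14). The same 3 settings that ended the calls of MRPS18A ended both calls of MRPS36 (−0.084, −0.097 and −0.12 in RPMI and −0.10, −0.079 and −0.13 in hBMSC-CM).

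Levels per kilobase of the canonical transcript had a median of 41.7 CPM per kb over the tested large-subunit members and 38.5 CPM per kb over those of the small subunit. The highest were MRPL33 with 196, MRPL51 with 122 and MRPS18B with 114 CPM per kb. The lowest were MRPL53 with 0.0215, MRPS24 with 1.36 and MRPS33 with 1.495 CPM per kb. MRPL53 shares 99.2% of its exon bases with other genes and MRPS24 90.9% with the read-through gene URGCP-MRPS24. MRPS33 shares none, and no difference was called for it in the 6 contrasts with TMM scaling, while with quizartinib in hBMSC-CM it was called higher under upper-quartile factors (0.30) and library size only (0.32). MRPL51 fell by 0.40 ± 0.05 in RPMI (adjusted p = 2.64e-07) and by 0.18 ± 0.05 in hBMSC-CM (adjusted p = 0.00297), where upper-quartile factors (−0.10) and library size only (−0.080) ended the call. Exon bases were shared with another gene for 31 of the 78 members, and of the 47 without any, 38 fell and 4 rose in RPMI (median −0.54). Of the 29 tested members with shared bases, 23 fell and 1 rose (median −0.45). Over all tested genes, 39.2% were called lower and 40.1% higher there. The annotation is a later release than the one used for counting, and the part of shared bases in the low counts was not tested.

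The other genes of mitochondrial translation gave the counts below. Over all tested genes, 39.2% were called lower and 40.1% higher in RPMI, and 33.7% and 33.4% in hBMSC-CM. Between the media with quizartinib, 35.5% were called higher and 34.3% lower. Of the mitochondrial translation factors, 28.6% were called higher in RPMI. Of the 5 subunits under other names (DAP3, CHCHD1, AURKAIP1, PTCD3 and GADD45GIP1), 5 fell in RPMI (median −0.50) and 3 in hBMSC-CM, and with quizartinib all 5 were higher in hBMSC-CM. Of 26 tested genes for mitoribosome assembly and rRNA modification, 19 fell and 4 rose in RPMI and 18 fell and 5 rose in hBMSC-CM. MRM1, an rRNA methyltransferase, went from 28.5 to 4.47 CPM in RPMI, a log2 fold change of −2.67, and from 31.3 to 19.4 CPM in hBMSC-CM (−0.68). Of 14 tested mitochondrial translation factors, 9 fell and 4 rose in RPMI and 7 fell and 2 rose in hBMSC-CM. Of 11 regulators of mitochondrial biogenesis, 9 fell and 1 rose in RPMI and 9 fell in hBMSC-CM. One of these was MYC, which was at 429 ± 14.6 CPM with vehicle and 50.4 ± 2.84 CPM with quizartinib in RPMI, and at 786 ± 12.6 and 593 ± 18.4 CPM in hBMSC-CM.

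The ribosomal proteins of the cytosol and the mRNAs of mitochondrial DNA are given for comparison, with no test of the difference from the members. Over all tested genes, 40.1% were called higher and 39.2% lower in RPMI, and 33.4% and 33.7% in hBMSC-CM. Of 77 tested cytosolic ribosomal protein genes, 53 rose and 6 fell in RPMI (median 0.19). In hBMSC-CM 23 of these genes rose, a share of 29.9% that is below that of all tested genes, and 7 fell (median 0.05). With upper-quartile factors 67 rose in RPMI and 46 in hBMSC-CM, and with no filter 33 rose in RPMI. The 13 mitochondrially encoded mRNAs, which the mitoribosome translates, rose in 9 cases and fell in 1 in RPMI (median 0.37) and rose in all 13 in hBMSC-CM (median 0.74). Their sum was 6610 CPM in quizartinib replicate 1 in hBMSC-CM, against 8746 and 8741 CPM in the other replicates. It was 6175 CPM in vehicle replicate 1 in hBMSC-CM, against 4658 and 4704 CPM. Without the former the median in hBMSC-CM was 0.86 and without the latter 0.98, with 13 of 13 higher in each. The rise in hBMSC-CM started from a lower vehicle level, as all 13 were lower there than in RPMI with vehicle (median −0.58). With quizartinib, 6 were lower and 2 higher in hBMSC-CM than in RPMI (median −0.23). For quizartinib in hBMSC-CM against vehicle in RPMI, 2 were called higher and 0 lower (median 0.14).

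**Figure D5:**
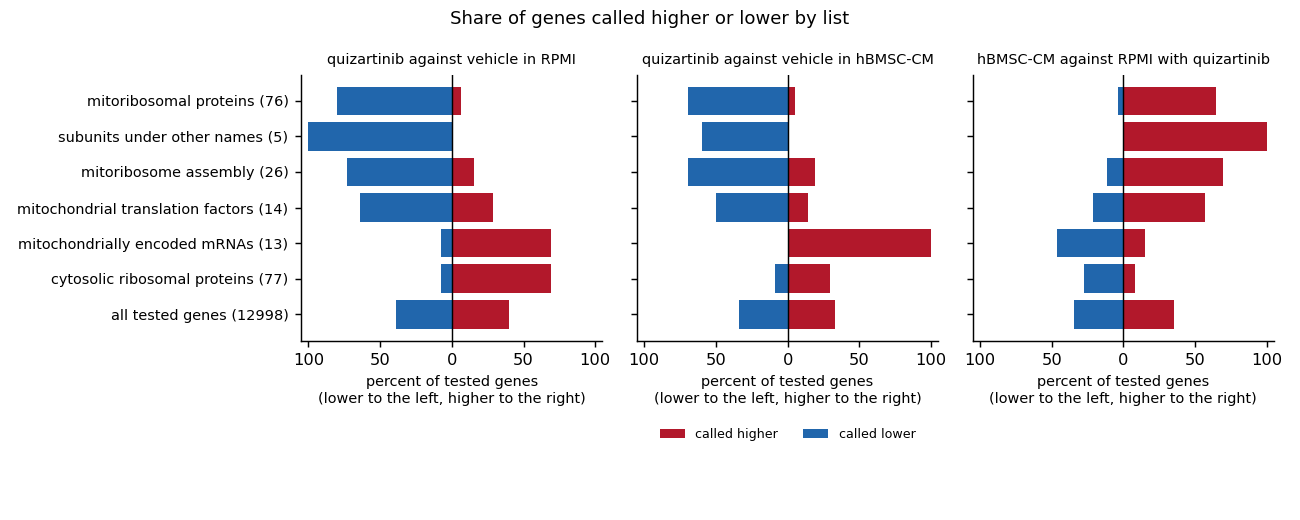
Percent of tested genes called higher (red, to the right) or lower (blue, to the left) at an adjusted p under 0.05 in 3 comparisons, for each list with its number of tested genes. The mitoribosomal proteins and the assembly genes lie mostly on the lower side with quizartinib against vehicle (61 and 19 lower in RPMI). The cytosolic ribosomal proteins and mitochondrially encoded mRNAs lie mostly on the higher side in RPMI (53 and 9 higher). In hBMSC-CM 29.9% of the cytosolic ribosomal proteins were called higher with quizartinib, against 33.4% of all tested genes.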

How the data were processed

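RNA-seq of 12 MOLM-13 libraries was used, grouped by the labels of the samples. The authors selected poly-A RNA, trimmed reads with BBDuk, aligned them with STAR 2.6.0a to the human genome (hg38) and deposited raw counts per gene, summed over identifiers with the same name. The strand setting of the counting was not given in the sources used here, and reads shared by overlapping genes or pseudogenes cannot be reassigned from such a table. Genes whose mean count and mean CPM both reached 1 were kept (12998 of 30572 with a count). TMM scaling and edgeR 4.0.16 (glmQLFit, glmQLFTest, R 4.3.3) with 1 mean per group gave the 6 contrasts, with two-sided tests and Benjamini-Hochberg adjustment. The authors used limma, which was run as an alternative (limma-voom 3.58.1), beside DESeq2 1.42.0, other scalings, other filters, a replicate block and leaving out each library. The test was checked on simulated counts.

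Total counts of 19966546 to 31546104 put a count of 3, the limit that a count of 0 allows, at 0.0951 to 0.150 CPM, for counting error only. Exons, lengths and shared bases came from GENCODE on GRCh38. Members and lists were chosen with earlier results of these data known. The genes named were the 3 largest called increases and decreases of each contrast, the 3 highest and lowest per kb, members under the filter, and MRPS18A, MRPS18B, MRPS18C, MRPS30, MRPS36, MRPL12 and MRPL58, with MYC. MRPL3, MRPL20, MRPL46, MRPS9, MRPS17 and MRPS34, and MRM1 and COL1A1, were chosen after their values were seen. The NRF1 motif was shortened by 1 letter. Protein sequences were not used here.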

Additional observations from a re-analysis of the deposited data

Results flagged for a closer look

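The interaction test, which asks whether quizartinib acted differently in the 2 media, called 42 mitoribosomal genes positive and 2 negative by edgeR (quasi-likelihood F-test, p adjusted by Benjamini-Hochberg). Over all tested genes, the same test called 26.1% positive and 19.2% negative. Among the named members, the interaction was 1.24 on the log2 scale for MRPS25, 1.12 for MRPL17, 1.11 for MRPL12, 1.08 for MRPL24, 1.05 for MRPS26, 0.75 for MRPS12 and 0.75 for MRPL36. Smaller positive values were called for MRPL51 (0.22), MRPS30 (0.21) and MRPS18C (0.20), and negative ones for MRPL10 (−0.33) and MRPL45 (−0.23). The call of MRPS18C was lost in 10 of the 12 fits that left out 1 library (0.15 to 0.25 over all 12) and was kept without vehicle or quizartinib replicate 3 in hBMSC-CM. It was also lost with the replicate block (0.20, adjusted p = 0.0639), DESeq2's size factors (0.19), upper-quartile factors (0.18), the DESeq2 Wald test (0.19) and a mean of at least 10 CPM (0.19). That of MRPL51 was lost without vehicle replicate 2 in RPMI (0.18), quizartinib replicate 1 in RPMI (0.19) or vehicle replicate 1 in hBMSC-CM (0.17), and that of MRPL45 without quizartinib replicate 3 in hBMSC-CM (−0.17) or with no filter (−0.16). What lies behind these differences was not tested.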

How the results depend on the processing

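Scaling and the filter both moved the medians. Over the genes tested in both fits, the median shifted by 0.10 in RPMI with upper-quartile factors, by 0.10 in hBMSC-CM with library size only and by −0.10 in RPMI with no filter. For the large and small subunits in RPMI the medians were −0.48 and −0.27 with upper-quartile factors, −0.49 and −0.28 with library size only, −0.68 and −0.47 with no filter, and −0.51 and −0.30 at a mean of at least 10 CPM, and −0.42 for the small subunit grouped by structure. In hBMSC-CM they were −0.21 and −0.10, −0.19 and −0.080, and −0.24 and −0.13 under upper-quartile factors, library size only and at least 10 CPM. Between the media with quizartinib they were 0.28 and 0.24 with upper-quartile factors and 0.40 and 0.36 with no filter. For quizartinib in hBMSC-CM against vehicle in RPMI they were −0.17 and −0.067 with upper-quartile factors, −0.14 and −0.036 with library size only, and −0.18 for the large subunit at 10 CPM. There, 8, 10 and 8 members were called higher under these 3 settings, against 4. In the interaction the medians were 0.33 and 0.29 with no filter, with 1 negative member. Members with no shared exon bases gave 0.11 for the small subunit between the media with vehicle and −0.050 for quizartinib in hBMSC-CM against vehicle in RPMI. Summed CPM with library size only was 2687, 2024, 2824 and 2499 for the large and 1939, 1549, 2043 and 1881 for the small subunit, in the order vehicle and quizartinib in RPMI, then in hBMSC-CM. MRPS27 in RPMI changed sign with no filter (−0.0019). The cause was not tested.

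Leaving out 1 library gave medians in RPMI of −0.56 to −0.53 for the large subunit, all weaker than the −0.58 with all libraries. For the small subunit the medians were −0.22 to −0.14 in hBMSC-CM and −0.17 to −0.082 for quizartinib in hBMSC-CM against vehicle in RPMI. Members lower in hBMSC-CM with quizartinib numbered 2 to 5, and negative interactions 1 to 3 (1 without quizartinib replicate 3 in hBMSC-CM). Deviations of the tested genes from their group means, on the log2 scale, were correlated between libraries of different groups. Same-numbered libraries gave −0.30 to 0.14 (median −0.026) and differently numbered ones −0.22 to 0.31 (median 0.029). Of the 12 libraries, 1 correlated best with its own number. No pairing by replicate number was seen, but with 3 libraries per group this cannot establish that the samples were unpaired. With the replicate block, quizartinib lowered 61 members in RPMI and 53 in hBMSC-CM, and 41 interactions were positive. Between the media with quizartinib, 49 members were higher and 2 lower in hBMSC-CM than in RPMI. Among the named genes the replicate block ended the calls of MRPS27 between the media with quizartinib and of the MRPS18C interaction.

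Depth limits the members near 3 CPM and below, MRPL12 among them.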
